A study of Homo sapiens with 4 samples.

Results

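Glycolysis, glucose transport and pyruvate handling were followed through 38 listed genes in M14 cells, an established human melanoma line, across 4 expression arrays. A gene was included where the platform annotation gave at least 1 probe set to it alone. That held for 36 of the 38 genes and 85 probe sets, among 19775 genes so named on the array. The lactate carriers SLC16A1 and SLC16A3 had no probe set named for them alone and are not analysed here. The rule uses gene names and no measured value, but the list was drawn up with earlier results of these data known.

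The cells had been transfected with pIRES2 carrying eGFP, either empty or holding FLAG-tagged ARHGAP8, in a variant without exon 5. Both lines were selected with G418 and sorted for eGFP, and 1 line per plasmid was measured, so what sets the lines apart cannot be told apart from the plasmid. Each line was grown for 4 days either on plastic coated with type I collagen (2D), harvested before confluence, or embedded in growth factor-reduced Matrigel (3D), with G418 in the medium throughout. Total RNA of each combination was hybridised to 1 array, so each group is a single array and single ratios carry no replicate error. Where the arrays were combined, the p-value sets a difference against the departure between both pairs of arrays, pooled largely over genes of like signal, and not against separate cultures.

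Glucose enters cells through carriers, is trapped by hexokinase, is committed to breakdown at phosphofructokinase and ends as pyruvate. Pyruvate is either reduced to lactate by lactate dehydrogenase or taken into mitochondria and oxidised by the pyruvate dehydrogenase complex, which pyruvate dehydrogenase kinases switch off. Many of these genes are known targets of hypoxia-inducible factors and of MYC, and tumour cells, melanoma among them, are known to run glycolysis at high rates even with oxygen present.

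Promoter stretches are shown for HK2, PFKFB4, PDK1, PGK1 and PDK3, since at least 1 of their probe sets rose in 3D, and for LDHA, since its promoter holds the same letters while its signal did not pass the test. They come from the RefSeq promoter table of GRCh38.p14 and run 5′ to 3′ on the gene's strand, with matches to ACGTG or GCGTG on either strand in capitals. These letters are the core of the element that hypoxia-inducible factors bind, and CACGTG, the E-box bound by MYC and its partners, contains ACGTG on both strands. Matches that overlap are counted once. The first 5 stretches are the 250 bases before the most upstream listed start. The PDK1 stretch is the last 30 bases before its downstream start and was chosen because that window holds matches. The 250 bases before the upstream PDK1 start held 0 matches, so 1 of its 2 starts had one.
HK2, chr2:74833877-74834126, plus strand: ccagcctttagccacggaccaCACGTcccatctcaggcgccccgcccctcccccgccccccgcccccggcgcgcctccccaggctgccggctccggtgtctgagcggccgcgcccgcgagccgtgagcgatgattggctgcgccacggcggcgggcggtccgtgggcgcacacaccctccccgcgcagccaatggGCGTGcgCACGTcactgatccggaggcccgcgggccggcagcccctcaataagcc
PFKFB4, chr3:48556804-48557053, minus strand: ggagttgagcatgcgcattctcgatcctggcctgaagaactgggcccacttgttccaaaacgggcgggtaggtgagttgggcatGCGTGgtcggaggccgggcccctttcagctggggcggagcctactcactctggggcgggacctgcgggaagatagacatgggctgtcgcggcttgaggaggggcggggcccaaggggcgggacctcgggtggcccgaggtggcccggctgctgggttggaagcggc
PGK1, chrX:78103998-78104247, plus strand: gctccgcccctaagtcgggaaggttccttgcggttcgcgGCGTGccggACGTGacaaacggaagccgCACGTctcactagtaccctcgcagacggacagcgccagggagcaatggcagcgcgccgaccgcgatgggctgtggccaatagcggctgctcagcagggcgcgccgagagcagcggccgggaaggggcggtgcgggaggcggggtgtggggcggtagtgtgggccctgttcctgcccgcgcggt
PDK3, chrX:24465036-24465285, plus strand: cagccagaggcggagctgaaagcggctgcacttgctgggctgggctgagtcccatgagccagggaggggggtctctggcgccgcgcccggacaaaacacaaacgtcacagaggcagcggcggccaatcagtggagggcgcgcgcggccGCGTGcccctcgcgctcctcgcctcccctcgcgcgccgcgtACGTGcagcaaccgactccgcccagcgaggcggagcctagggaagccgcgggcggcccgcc
LDHA, chr11:18394313-18394562, plus strand: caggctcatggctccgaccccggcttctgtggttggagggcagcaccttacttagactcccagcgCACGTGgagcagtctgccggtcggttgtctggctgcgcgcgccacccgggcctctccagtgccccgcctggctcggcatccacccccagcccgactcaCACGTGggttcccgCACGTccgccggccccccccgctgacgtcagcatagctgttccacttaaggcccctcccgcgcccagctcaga
PDK1, chr2:172556060-172556089, plus strand: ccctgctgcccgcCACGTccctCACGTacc

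Of the promoter windows of all genes, 43.2% of 35116 held either motif within 250 bases before the start, and 47.4% of 27305 genes held one at 1 or more of their starts. Among the 8 members with a probe set that rose in 3D, 6 had a promoter in the table, and all 6 (the 5 above and ALDOA) held a match at 1 or more starts. Of the other members, 27 had a promoter and 19 held a match, GAPDH, ENO1 and LDHA among them. Counted by window, 9 of 10 held a match in the members that rose and 22 of 50 in the others, beside the 43.2% of all windows. Genes with more starts have more windows in which to hold a match. The difference between the groups was not tested, and a match is a description of letters, not of a bound site. SLC2A3 and PFKFB2 had no entry.

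Signals are the authors' MAS5 intensities, which have a linear scale in arbitrary units. A signal under 72.3, the median of all probe sets, was raised to that floor, and a ratio with a side at the floor is a bound. A gene was represented by its probe set with the highest mean signal. With this rule 35 of the 36 members exceeded the floor on at least 1 array and 34 on at least 2, and these 34 were tested. ENO2, the neuronal enolase gene, stayed below the floor with signals of 5.97 to 16.9. PDK2 exceeded the floor on 1 array alone, at 73.0. Signals of different genes are not compared, since probe sets differ in brightness.

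Of 7 pigment cell markers with a probe set of their own, 6 were above the floor on all 4 arrays (MITF, MLANA, TYR, TYRP1, SOX10 and S100B), with DCT below it. The summed signal of that list was 7918 with the empty vector and 5169 with ARHGAP8 on plastic, against 8774 and 8495 in gel, lowest on the ARHGAP8 2D array. All 5 epithelial markers were below the floor on every array, as were 2 of 3 endothelial, 2 of 3 blood and 2 of 5 fibroblast markers. COL1A1, COL1A2, DCN, PECAM1 and HBB exceeded it on all 4 arrays. The summed fibroblast list was 624 and 505 on plastic, against 702 and 578 in gel, and the part of other cells in any result was not tested. The 4 probe sets of ARHGAP8, all annotated to a second gene as well, gave signals of 4.02 to 14.8. These lay under the floor on all 4 arrays, in the ARHGAP8 line too. The arrays therefore do not show whether that line held more ARHGAP8 RNA. In bulk RNA, fewer cells of a kind and less RNA per cell cannot be told apart.

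**Figure D1:**
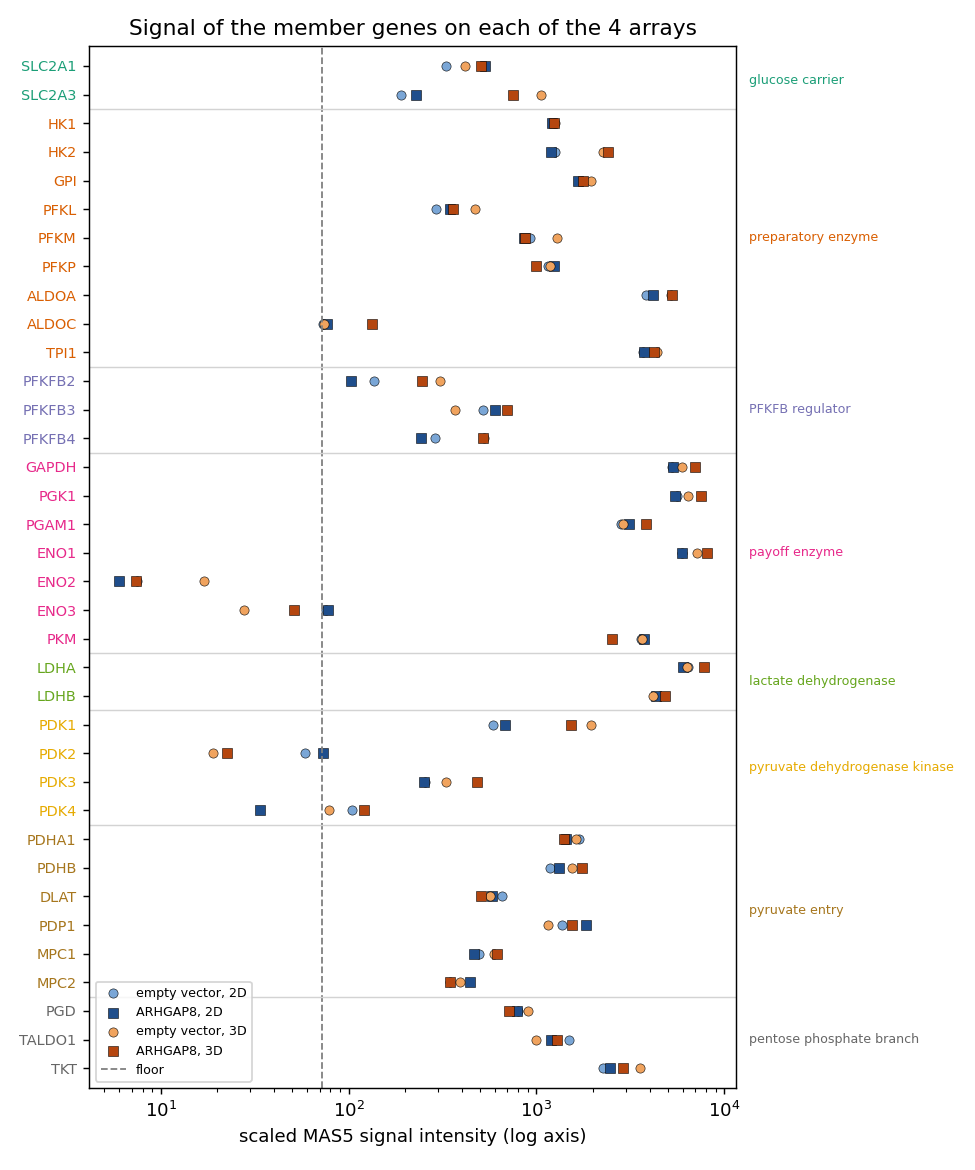
Scaled MAS5 signal (log axis) of the 36 member genes that had a probe set of their own, in rows grouped and coloured by role, with 1 point per array and a dashed line at the floor of 72.3. For SLC2A3, HK2, PFKFB2, PFKFB4 and PDK1 both 3D points lie to the right of both 2D points by a wide gap, while for most other genes the 4 points lie close together.

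The first comparison asked how the members differed between cells in gel and cells on plastic. The matrix differed too, with Matrigel in 3D and type I collagen in 2D, where cells were harvested before confluence. Dimension, matrix and any difference in cell density cannot be told apart. The genes that rose in 3D were SLC2A3, which encodes the high-affinity glucose carrier GLUT3, HK2, the inducible hexokinase, PFKFB2 and PFKFB4, whose enzymes set the level of the phosphofructokinase activator fructose 2,6-bisphosphate, and PDK1, a kinase that inactivates pyruvate dehydrogenase. None of the 34 tested members fell. By an additive limma model of plasmid and culture over 13239 genes, with Benjamini-Hochberg adjustment, 5 of 34 members rose and 0 fell, and the other 29 did not pass. Over all genes tested, 2.83% rose and 4.15% fell. An unadjusted p under 0.05 was reached by 9 of the 34, beside 21% of all genes.

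The median log2 ratio of 3D over 2D over the 35 measured members was 0.18 with the empty vector and 0.21 with ARHGAP8, beside 0.00 and 0.03 over all 14292 measured genes. Over the 313 genes with signals above 2000 on all 4 arrays, a limit chosen after the values were seen, it was 0.03 and 0.18. For the 10 members that bright it was 0.18 and 0.32. The part of brightness in these medians was not tested. In both lines 20 of the 35 were higher in 3D and 4 were lower, 10 went opposite ways and 1 stayed at the floor in 1 line. At least 2-fold higher in 3D were 3 of 34 members in the empty-vector line (SLC2A3, PDK1 and PFKFB2) and 5 of 35 in the ARHGAP8 line (these and HK2 and PFKFB4). The same size was reached by 1.72% and 1.78% of all genes. At least 2-fold lower were 0 members in either line, beside 1.27% and 1.91% of all genes. The lines share no array in these ratios.

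**Figure D2:**
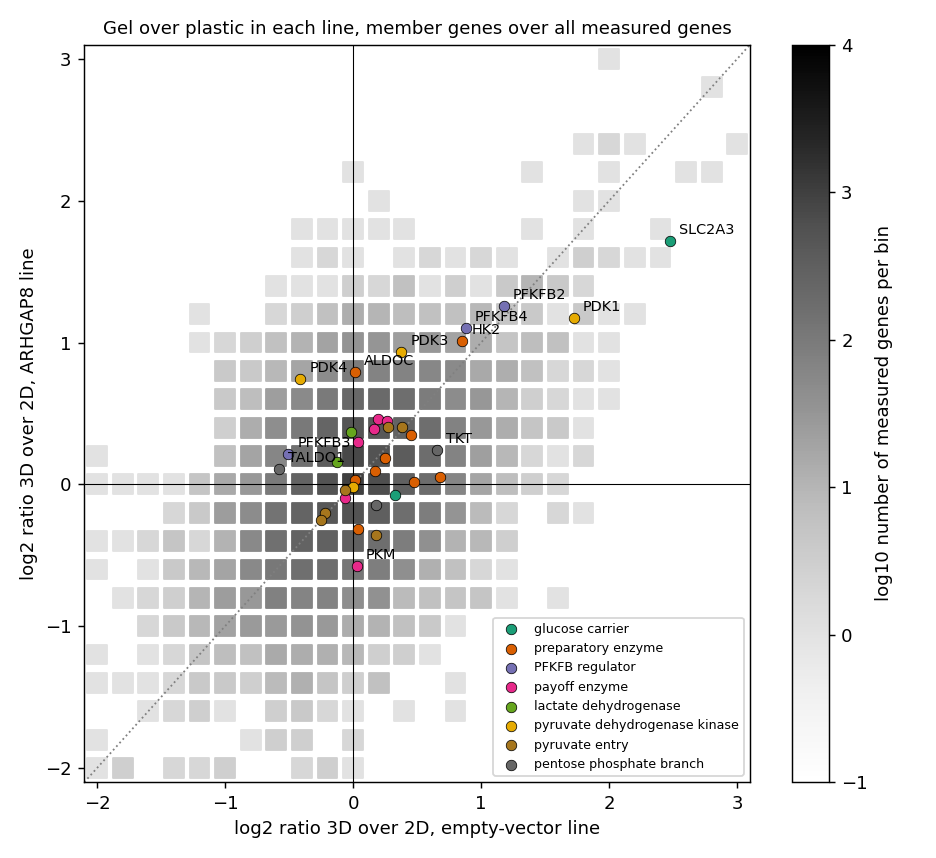
Log2 ratio of 3D over 2D in the empty-vector line (x axis) against the same ratio in the ARHGAP8 line (y axis) for the 35 measured members, coloured by role, over grey squares whose shade gives the number of measured genes per bin; all-gene values beyond -2 or 3 are drawn in the outermost bins and the dotted line marks equal ratios. SLC2A3 (2.47 and 1.72), PDK1 (1.72 and 1.17) and PFKFB2 (1.18 and 1.26) lie furthest to the upper right of the members.

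Of the glucose carriers, SLC2A3 changed most. On plastic its signal was 191 with the empty vector and 229 with ARHGAP8, and in gel it was 1058 and 753. Both 3D signals were thus far above both 2D signals, with the empty-vector array the highest of the 4. SLC2A3 rose by 2.09 ± 0.20 log2 (moderated SE, 4 arrays; adjusted p 8.20e-07 in limma), or 4.27-fold. Its other 2 probe sets rose too, by 1.89 and 2.36. SLC2A1, which encodes GLUT1, the carrier found in most cell types, gave 331 and 535 in 2D and 415 and 508 in 3D. Its 2D and 3D signals overlapped, and it did not pass for the culture (0.13 ± 0.18 log2, adjusted p 0.750 in limma). Its other, dimmer probe set read -0.41.

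Among the preparatory enzymes, which spend ATP to make triose phosphates, 1 of 9 rose. The HK2 signal was 1260 with the empty vector and 1196 with ARHGAP8 on plastic, against 2274 and 2413 in gel. The 3D signals did not overlap those in 2D, and within each culture the lines lay close together. HK2 rose by 0.93 ± 0.16 log2 (moderated SE, 4 arrays; adjusted p 0.00105 in limma). Of its other probe sets, 1 lay at the floor and 1 read -0.24, from signals of 110 to 147. HK1, the hexokinase present in most tissues, gave 1236, 1214, 1252 and 1240 on the empty-vector 2D, ARHGAP8 2D, empty-vector 3D and ARHGAP8 3D arrays, and a difference of 0.02 ± 0.16 log2. The 4 HK1 signals were nearly level. The difference between the hexokinase genes was not tested.

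The remaining preparatory enzymes did not pass. GPI, phosphoglucose isomerase, ran from 1665 to 1956 over the 4 arrays with a difference of 0.13. The phosphofructokinase subunit genes PFKL, PFKM and PFKP read 0.37, 0.25 and -0.14. PFKM was at 1284 on the empty-vector 3D array against 858 to 925 on the others, so its value comes from 1 array. ALDOA, the aldolase of most tissues, gave 3834 and 4163 in 2D and 5232 and 5298 in 3D, groups that did not overlap, with 0.40 ± 0.19 log2 and an adjusted p of 0.235 in limma. ALDOC, the brain aldolase, lay at 73.2 to 76.8 on 3 arrays, next to the floor, and at 133 on the ARHGAP8 3D array. TPI1, triose phosphate isomerase, read 0.22.

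Of the 3 bifunctional PFKFB genes, 2 rose. PFKFB2 gave 136 and 103 on plastic, against 308 and 247 in gel (empty vector first), and rose by 1.22 ± 0.24 log2 (moderated SE, 4 arrays; adjusted p 0.00325 in limma). Its next brightest probe set read 0.52 and did not pass, and the rest lay at or near the floor. PFKFB4 gave 287 and 243 in 2D and 527 and 521 in 3D and rose by 0.99 ± 0.19 log2 (moderated SE, 4 arrays; adjusted p 0.00235 in limma), and its other probe set lay at the floor. For both genes the ranges of the cultures were apart. PFKFB3, whose enzyme has the highest kinase activity of the family, went opposite ways in the lines, with 520 on plastic and 366 in gel for the empty vector, and 603 and 699 for ARHGAP8. Its culture difference was -0.15 ± 0.19 log2.

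The payoff enzymes, which regain ATP and form pyruvate, gave smaller differences on their chosen probe sets. None of 6 tested members passed, and neither did the lactate dehydrogenase genes. GAPDH read 0.28 ± 0.20, PGK1 0.33 ± 0.21, PGAM1 0.17 ± 0.18, ENO1 0.35 ± 0.21 and PKM -0.27 ± 0.19 log2 (moderated SE, 4 arrays). LDHA, which forms lactate, gave 6408 and 6029 on plastic, against 6339 and 7785 in gel. Only the ARHGAP8 3D array stood above the rest. Its difference was 0.18 ± 0.21 log2. LDHB, which favours the reverse reaction, read 0.02 ± 0.19. PKM, which encodes the muscle-type pyruvate kinase, was lowest on the ARHGAP8 3D array, at 2521 against 3588 to 3755 on the others, and its dim other probe set read 0.59. ENO3, the muscle enolase gene, lay next to the floor at 75.5 and 77.4 in 2D and below it in 3D.

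PGK1, phosphoglycerate kinase, depended on which of its 6 probe sets was read. The brightest, used above, gave 5627 and 5447 in 2D and 6439 and 7483 in 3D. The next in brightness read 0.67, from 3637 and 3740 in 2D to 5770 and 6009 in 3D. Another gave 2673 and 2710 on plastic, against 4814 and 5133 in gel. In a limma fit with each probe set as its own feature, adjusted over 23095 probe sets, this last one rose by 0.89 ± 0.18 log2 (adjusted p 0.0137), and a dim one rose by 1.57 ± 0.26 from 72.5 and 71.5 to 248 and 187 (adjusted p 0.00405). The second value of that dim pair lay below the floor. Across the 6, the culture difference ran from 0.33 to 1.57, all of them positive, and the probe set with the highest signal gave the smallest. One more, at 227 to 255 on 3 arrays and 971 on the ARHGAP8 3D array, takes its value of 1.11 from that array.

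By probe set, 12 of 70 tested member probe sets rose in 3D and 0 fell, beside 1.81% and 2.23% of all probe sets tested. They belonged to 8 genes: the 5 named above, PGK1, PDK3 and ALDOA. ALDOA's dimmest probe set rose by 0.71 ± 0.17 log2 (adjusted p 0.0271 in limma), from 956 and 1060 to 1768 and 1544, while its brighter pair read 0.40 and 0.35 without passing. The GAPDH probe sets, all bright, read 0.20 to 0.28 and the ENO1 probe sets 0.30 to 0.63, none past the test. One ENO1 probe set, like that of PGK1, was raised on the ARHGAP8 3D array alone, at 986 against 415 to 434.

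**Figure D3:**
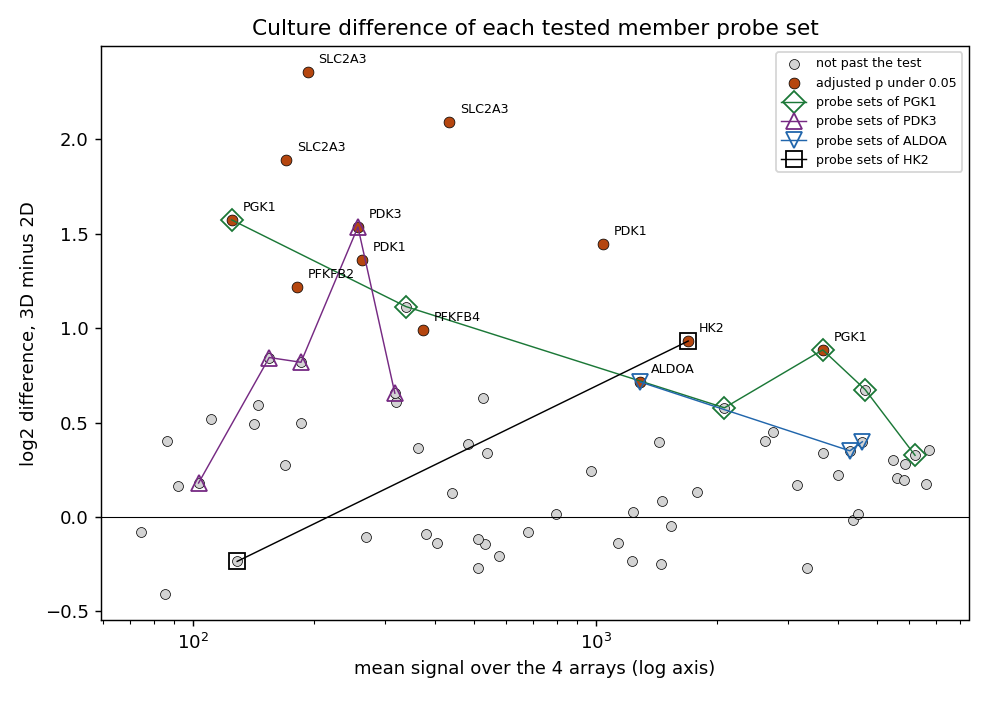
Log2 difference of 3D minus 2D (y axis) against the mean signal over the 4 arrays (x axis, log scale) for the 70 tested member probe sets, with those past the limma test in orange and the probe sets of PGK1, PDK3, ALDOA and HK2 joined by lines. The brightest PGK1 and ALDOA probe sets read 0.33 and 0.40, below the 0.89 and 0.71 of dimmer probe sets that rose.

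The pyruvate dehydrogenase kinases hold the second gene in size of change. PDK1 gave 587 and 676 on plastic, against 1941 and 1523 in gel (empty vector first), with no overlap of the cultures. It rose by 1.45 ± 0.17 log2 (moderated SE, 4 arrays; adjusted p 1.35e-05 in limma), or 2.73-fold. A dimmer probe set rose by 1.36 and the dimmest read 0.49 without passing. PDK3 gave 254 and 252 in 2D and 330 and 481 in 3D, higher in gel in both lines, and came to 0.66 ± 0.21 log2 with an adjusted p of 0.0587 in limma. Of its other 4 probe sets 1 rose by 1.54 ± 0.22 log2 (adjusted p 0.00132 over all probe sets in limma), from 150 and 152 to 417 and 459. The other 3 read 0.18, 0.84 and 0.82 without passing. The 0.82 comes mostly from the ARHGAP8 3D array, at 376 against 139 to 162 on the others. PDK4, a kinase induced by fasting in many tissues, was dim, at 104 and 33.6 in 2D and 78.5 and 121 in 3D, and the cultures overlapped.

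The genes that bring pyruvate into the mitochondrion and oxidise it did not pass. For the pyruvate dehydrogenase complex, PDHA1 read -0.05 ± 0.16, PDHB 0.40 ± 0.16 and DLAT -0.21 ± 0.17 log2 (moderated SE, 4 arrays). PDHB was higher in 3D in both lines, from 1187 to 1551 and from 1322 to 1752, with an adjusted p of 0.145 in limma. PDP1, the phosphatase that reactivates the complex, read -0.25 in each line. The mitochondrial pyruvate carrier genes MPC1 and MPC2 read 0.34 and -0.09. So 0 of 6 such genes passed, while the gene of 1 kinase that holds the complex inactive rose.

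In the pentose phosphate branch, 0 of 3 genes passed. TKT, transketolase, gave 2257 and 2457 in 2D and 3557 and 2904 in 3D, groups apart, and read 0.45 ± 0.18 log2 with an adjusted p of 0.141 in limma. PGD read 0.02. TALDO1, transaldolase, was lowest on the empty-vector 3D array, at 996 against 1196 to 1484 on the others, and read -0.23 ± 0.17.

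The culture calls depend on the gene's summary and on the filter. With the mean of all probe sets of a gene, 1 of 34 members passed, SLC2A3, while HK2 read 0.23, PFKFB2 0.45, PFKFB4 0.49 and PDK1 1.10. For HK2, PFKFB2 and PFKFB4 the mean takes in a probe set at the floor on every array, whose difference is set to 0. All 3 PDK1 probe sets exceeded the floor. With no filter on dim genes 0 of 36 members and 0 of 19775 genes passed. That fit also took in genes at the floor on all 4 arrays, whose values have no spread. In it HK2 kept its difference of 0.93, with an SE of 0.08 and an adjusted p of 0.475 in limma. The 3' over 5' signal ratio of the ACTB control, a measure of RNA integrity, was 1.10 and 1.05 on plastic, against 1.23 and 1.32 in gel, and the same ratio for GAPDH ran from 0.874 to 0.925 over all 4 arrays. Their part in the results was not tested.

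Genes around the pathway were read from 8 further lists of 125 genes, of which 93 were tested. In 3D 5 rose and 3 fell, beside the same 2.83% and 4.15% of all genes. Of 11 tested carriers and their regulators, 3 rose. TXNIP, a glucose-responsive inhibitor of glucose uptake, rose by 1.03 ± 0.20 log2, with 447 and 521 in 2D and 1290 and 750 in 3D. SLC16A4, of the monocarboxylate carrier family, rose by at least 1.58 averaged over the lines, since its ARHGAP8 2D signal of 53.3 was under the floor. SLC5A3, a carrier of myo-inositol, rose by 0.95 ± 0.19 log2, with 1225 and 1246 in 2D and 3269 and 1736 in 3D.

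Among 8 tested genes of other pyruvate routes, 1 rose. It was ME1, the cytosolic malic enzyme that makes pyruvate and NADPH, by 1.70 ± 0.18 log2 (adjusted p 5.89e-06 in limma), from 203 and 248 to 740 and 714. Of 13 glycogen genes 1 rose and 1 fell. GBE1, the glycogen branching enzyme gene, rose by 1.00 ± 0.16, from 1162 and 1546 to 2574 and 2796. PYGB, a glycogen phosphorylase gene, fell by 0.89 ± 0.19, with ratios of -0.40 in the empty-vector and -1.38 in the ARHGAP8 line, while its other probe set read 0.14. Of 11 further isozymes and accessory genes 2 fell. ADPGK, an ADP-dependent glucokinase gene, fell by 0.62 ± 0.18, from 587 and 628 to 429 and 365. PGAM5, a mitochondrial phosphatase gene despite its name, gave 377 and 249 on plastic, against 30.7, under the floor, and 172 in gel. It fell by a bound of 1.46, from ratios of -2.38 with the empty vector and -0.53 with ARHGAP8, so the size rests on the empty-vector arrays, and its other probe set lay at the floor.

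No gene passed among 16 tested of the citric acid cycle, 10 of the pentose phosphate and hexosamine branches, 6 of the glycerol and serine branches and 18 regulators. The citric acid cycle list had median ratios of 0.25 in the empty-vector and 0.12 in the ARHGAP8 line. HIF1A, which encodes an oxygen-regulated factor controlled largely at the protein level, read 0.09 ± 0.16 log2, from 1484 and 1834 in 2D to 1694 and 1829 in 3D. EPAS1 read 0.43 ± 0.27 log2 (adjusted p 0.387 in limma), with 217 on the empty-vector 3D array against 111 to 120 on the others. MYC read 0.43 ± 0.16 (adjusted p 0.132 in limma), and EGLN1 and EGLN3, whose products mark HIF for degradation, read 0.42 and 0.18.

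The second comparison asked whether the lines differed in these genes. ARHGAP8 itself was under the floor in both lines, so the lines are named by their plasmid and not by a measured ARHGAP8 difference. In the same limma fit 0 of 34 members passed for the plasmid, beside 0.128% of all genes, with 0.068% higher and 0.0604% lower in the ARHGAP8 line. An unadjusted p under 0.05 was reached by 3 of 34 members, beside 8.14% of all genes tested, and by 6 of 70 member probe sets, beside 7.31%. On the chosen probe set of each gene, 0 of 35 members in 2D and 0 of 33 in 3D were at least 2-fold apart. That size was reached upwards by 0.25% of all genes in 2D and 1.09% in 3D, and downwards by 0.25% and 1.3%. Other member probe sets did reach it in 3D, with log2 ratios of 1.93 for PGK1, 1.22 for PDK3 and 1.18 for ENO1. Each of these had its highest signal on the ARHGAP8 3D array. The lowest ratio of a member probe set in 3D was -0.68, of SLC2A3. In both cultures 8 members were higher in the ARHGAP8 line and 8 lower, and 17 went opposite ways. The median ratio was 0.01 in 2D and 0.00 in 3D.

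The 3 members with an unadjusted p under 0.05 were SLC2A1, PFKFB3 and PDP1. SLC2A1 read 0.49 ± 0.18 log2 for ARHGAP8 over empty vector (adjusted p 0.397 in limma), its ratio being 0.69 on plastic and 0.29 in gel. Its other, dimmer probe set read -0.28 on plastic and 0.06 in gel. PFKFB3 read 0.57 ± 0.19 (adjusted p 0.297 in limma), of which 0.21 came in 2D and 0.93 in 3D, where its signals were 366 and 699. PDP1 read 0.42 ± 0.16 (adjusted p 0.409 in limma) and was even across cultures, with 1370 and 1837 in 2D and 1153 and 1541 in 3D.

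**Figure D4:**
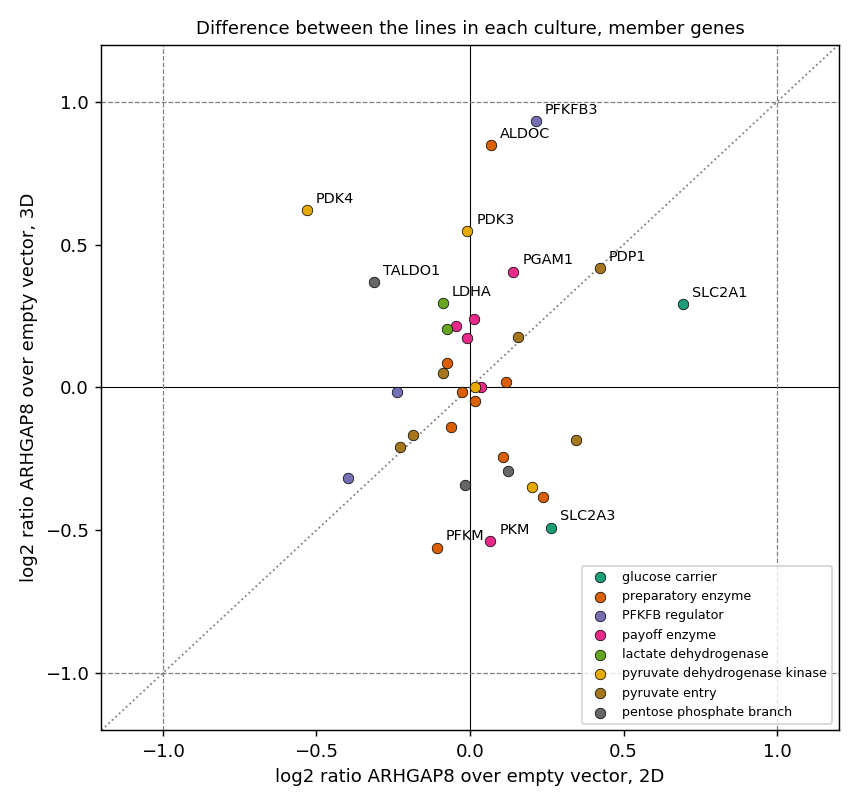
Log2 ratio of the ARHGAP8 line over the empty-vector line in 2D (x axis) and in 3D (y axis) for the 35 measured members. Each point is the chosen probe set of a gene, coloured by role. Dashed lines mark 2-fold and the dotted line marks equal ratios. No point passes the 2-fold lines; PFKFB3 (0.21 and 0.93) and ALDOC (0.07 and 0.85) lie highest in 3D and SLC2A1 (0.69 and 0.29) furthest right.

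The genes that rose in 3D also showed how the lines compared within gel. For SLC2A3 the ratio of ARHGAP8 over empty vector was -0.49 in 3D, and its other probe sets read -0.63 and -0.68. In 2D the same probe sets differed in sign, at 0.26, -0.07 and -0.11. For PDK1 the ratio was -0.35 in 3D and 0.20 in 2D, but its dimmest probe set read 0.71 in 3D. PFKFB2 read -0.32 in 3D and -0.40 in 2D, while its next brightest probe set read -0.20 and 0.13. HK2 and PFKFB4 differed by at most 0.09 log2 between the lines in 3D. None of these differences could be tested, since the interaction leaves no degree of freedom.

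Bright members differed between the lines in 3D about as other bright genes did. Of the members, 10 had signals above 2000 on all 4 arrays (ALDOA, ENO1, GAPDH, LDHA, LDHB, PGAM1, PGK1, PKM, TKT and TPI1), a limit chosen after their values were seen, and 7 of the 10 were highest on the ARHGAP8 3D array, while PKM was lowest there. So were 55.9% of all 313 genes of that brightness. The median ratio between the lines in 3D was 0.19 for these members and 0.18 for all such genes, and after quantile normalization -0.06 and 0.02. All 8 bright control probe sets for the cre and bioD hybridisation spikes, which come from no human gene, were highest on the ARHGAP8 3D array too. Their median ratio of ARHGAP8 over empty vector was 0.41 in 3D and 0.02 in 2D. The 18S ribosomal RNA controls had a median signal of 626 there against 27.7 to 49.4 elsewhere. The sign of the bright members' median between the lines in 3D thus flipped with the scaling.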

How the data were processed

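RNA from 4 samples was measured on 1 Affymetrix array each. The deposited values are linear intensities of each probe set, and per the submitters' processing notes the tool was MAS5. Its version and detection calls are not given in the sources used here. Each array had been scaled to a 2% trimmed mean of 150.0. Of 54675 probe sets, 62 controls were set aside, 41091 named 1 gene, 1801 several and 11721 none in the platform annotation; 41037 of the first were matched to RefSeq by gene identifier and took its symbol. Values were rescaled, floored at 72.3 and log2-transformed. Genes above the floor on at least 2 arrays were tested with limma 3.58.1 (R 4.3.3), an additive model of plasmid and culture. The two-sided tests used eBayes with a trend on intensity, Benjamini-Hochberg adjustment over all genes and a threshold of 0.05. The model has 1 residual degree of freedom and 19.4 prior ones, so each SE draws mostly on other genes of like signal. The script was tested on data simulated under the model's own assumptions, which does not test whether they hold here. The number of arrays limits the precision. Alternatives were other scalings, floors, filters, probe set rules and variance models and leaving out an array. Every measured member is named, and genes of the further lists are named where they passed. The regulators HIF1A, EPAS1, MYC, EGLN1 and EGLN3 are named besides, chosen after their values were seen. The members and lists were chosen with earlier results of these data known.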

Additional observations from a re-analysis of the deposited data

Results flagged for a closer look

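PDK4 had log2 ratios of 3D over 2D that went opposite ways in the lines, -0.41 with the empty vector and 0.74 with ARHGAP8, a difference of 1.15. The ratio between the lines was likewise -0.53 in 2D and 0.62 in 3D. This difference was not tested, its ARHGAP8 2D signal of 33.6 lay under the floor, and the other 3 signals were 78.5 to 121.

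Outside the genes compared, the cre and bioD control probe sets had a median log2 ratio of 0.41 for the ARHGAP8 3D array over the empty-vector 3D array, from 0.27 to 0.48 over 8 probe sets.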

How the results depend on the processing

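The count of 5 members that rose in 3D stayed at 5 or 6 under 9 of 12 alternatives. It was 0 with no filter on dim genes, where 0 of 19775 genes passed, 1 with the mean of a gene's probe sets, where 25 of all genes rose and 12 fell, and 8 with each probe set tested by itself. PDK3 was the sixth member, when the filter asked for a signal over the floor on every array (adjusted p 0.0330 in limma, from 0.0330 to 0.623 over its settings). No member fell in 3D or passed for the plasmid under any of the 12, where 2 to 5 members had an unadjusted p under 0.05. Over all genes, 375 rose and 550 fell in 3D and 17 passed for the plasmid. These became 267, 291 and 0 after quantile and 266, 268 and 0 after cyclic loess normalization, 213, 212 and 1 without the variance trend, and the plasmid count 0 with no filter, with probe set means or per probe set, 1 at 0.5 times the floor, 8 without _x_at probe sets, 10 with robust eBayes and 61 with a signal over the floor on every array. For the 8 further lists the 5 that rose became 0 with no filter and 1 with probe set means, and the 3 that fell became 0 under both of these and 1 without the variance trend. At least 2-fold apart between cultures in the ARHGAP8 line were 2 members with probe set means. Between the lines in 2D it was 1 member with no floor and 1 with a floor at 0.5 times the main one. The culture median of 0.19, as the mean of the lines, was 0.13 after quantile and 0.23 after cyclic loess normalization, 0.15 with probe set means and 0.24 without _x_at probe sets. The median between the lines, 0.0059 as the mean of the cultures, lay near 0 throughout: -0.0052 after quantile and -0.0083 after cyclic loess normalization, 0.031 without a floor, -0.0072 and 0.015 with floors at 2 and 0.5 times the main one, -0.0071 with probe set means and -0.013 without _x_at probe sets. The cause was not tested. Leaving out 1 array in turn leaves the ratio of 1 line or 1 culture. It therefore gave back the medians of the single comparisons, 0.18 to 0.21 for the culture and 0 to 0.012 for the lines, without a test. No called value changed sign. The additive model already compares the cultures within each line. Each group holds 1 array, so there are no replicate numbers to block on beyond that model.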
